A study of Mus musculus with 16 samples.

Results

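In neural cells (NPC) obtained from mouse embryonic stem (ES) cells by 6 days of differentiation in suspension, 12013 Flag-PCGF5 peaks were listed, and 3829 of them (31.9%, 95% Wilson interval 31.0% to 32.7%) lay in introns and carried neither Polycomb histone mark. These members were chosen by their position and by the measured peak lists of wild type NPC. A member overlapped no H2AK119ub1 peak and no H3K27me3 peak, had its centre over 2500 bp from every start site of a protein-coding transcript, and had that centre inside a protein-coding gene but in no exon of one. The other unmarked peaks were 2629 at promoters, 4278 in intergenic sequence and 519 in exons, and 758 peaks carried a mark.

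PCGF5 is a subunit of a variant Polycomb repressive complex 1, in which it partners the ubiquitin ligase RING1B that places a single ubiquitin on a lysine of histone H2A (H2AK119ub1). Polycomb repressive complex 2 places H3K27me3, and at classical Polycomb targets both marks cover CpG islands, the CG-rich stretches found at many promoters. Introns are mostly poor in CpG dinucleotides, and they hold many of the enhancers of their own or of neighbouring genes.

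The study asked which genes PCGF5 occupies during neural differentiation and what happens to both marks when PCGF5 is lost. ES cells were the 46C line, which carries GFP at the neural gene Sox1, kept on feeder fibroblasts with LIF and the 2i inhibitors. For Flag-PCGF5 the cells carried a Flag tag at the Pcgf5 gene and the label gives their genotype as wild type, while for the marks there were wild type cells and PCGF5-depleted cells, labelled shPCGF5. The study describes a nuclease knockout as well as hairpin lines, both grown from picked clones. The label of the depleted libraries names the hairpin, and the study made its PCGF5-deficient 46C lines with hairpins. Its supplement, though, describes these profiles as PCGF5−/−. Each combination of cell and antibody was 1 library, so no comparison here has a replicate check, and the intervals cover counting error only. Flag ChIP from cells without the tag was not analysed here. The labels call the differentiated cells neural, and the marker check could use marks alone. In wild type NPC, H3K27me3 peaks lay at the promoters of 3 of 5 precursor genes (Nes, Pax6 and Pou3f2, with none at Sox1 and Cdh2) and of 3 of 5 pluripotency genes (Zfp42, Klf4 and Esrrb, with none at Pou5f1 and Nanog). Flag-PCGF5 peaks lay at 3 of the precursor promoters (Pax6, Pou3f2 and Cdh2) and at 0 of the pluripotency promoters, and none of these 10 genes hosted a member.

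The sequences of a few members show what the intronic sites look like. Each is the 300 bp around the peak centre on the plus strand of mm9, and capitals mark every CG dinucleotide. Camk2g and Umod are shown because they were among the members of lowest q-value away from regions of very high enrichment, and Ryr1 and Pknox2 because Flag-PCGF5 peaks lay there in ES as well as in NPC.
Camk2g, chr14:21591160-21591459: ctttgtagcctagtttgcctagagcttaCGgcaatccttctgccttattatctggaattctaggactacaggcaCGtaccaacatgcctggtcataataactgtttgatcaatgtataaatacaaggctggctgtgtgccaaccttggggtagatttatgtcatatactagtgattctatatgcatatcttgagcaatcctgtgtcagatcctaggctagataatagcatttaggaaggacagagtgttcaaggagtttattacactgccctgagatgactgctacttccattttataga
Umod, chr7:126614613-126614912: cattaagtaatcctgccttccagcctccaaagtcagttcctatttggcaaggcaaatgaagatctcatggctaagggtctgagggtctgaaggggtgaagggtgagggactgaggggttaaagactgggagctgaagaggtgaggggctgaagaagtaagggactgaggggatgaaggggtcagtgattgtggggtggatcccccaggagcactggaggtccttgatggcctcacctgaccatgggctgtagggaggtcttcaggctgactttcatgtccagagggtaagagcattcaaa
Ryr1, chr7:29873331-29873630: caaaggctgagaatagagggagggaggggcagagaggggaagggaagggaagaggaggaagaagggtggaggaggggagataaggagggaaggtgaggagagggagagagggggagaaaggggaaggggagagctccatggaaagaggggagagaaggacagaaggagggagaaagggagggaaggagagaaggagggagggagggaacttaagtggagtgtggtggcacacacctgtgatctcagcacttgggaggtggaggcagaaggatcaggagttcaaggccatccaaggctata
Pknox2, chr9:36819550-36819849: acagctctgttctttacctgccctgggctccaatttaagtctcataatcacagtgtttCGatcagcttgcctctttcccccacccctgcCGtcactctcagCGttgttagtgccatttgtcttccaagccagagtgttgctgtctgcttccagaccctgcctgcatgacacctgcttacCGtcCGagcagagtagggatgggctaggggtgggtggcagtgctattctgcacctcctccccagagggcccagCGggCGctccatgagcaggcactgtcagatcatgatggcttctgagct
The Camk2g window held 2 CG dinucleotides at a GC content of 40.7%. The Umod window had 53.3% GC and the Ryr1 window 57.3% GC, and neither contained a CG. Long runs of G and A fill much of the Ryr1 window. The Pknox2 window, at 56.3% GC, held 7.

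A pair of further windows carry letter patterns described later. In the first, capitals mark a run of GGAT repeats in an intron of 4933411K20Rik. In the second they mark the letters AGGGGGC, a spelling of the core of the CTCF motif, in the first intron of Lrrc4b. Other spellings of that core were not counted or marked. Both windows were chosen after the patterns had been counted.
4933411K20Rik, chr8:47270807-47271106: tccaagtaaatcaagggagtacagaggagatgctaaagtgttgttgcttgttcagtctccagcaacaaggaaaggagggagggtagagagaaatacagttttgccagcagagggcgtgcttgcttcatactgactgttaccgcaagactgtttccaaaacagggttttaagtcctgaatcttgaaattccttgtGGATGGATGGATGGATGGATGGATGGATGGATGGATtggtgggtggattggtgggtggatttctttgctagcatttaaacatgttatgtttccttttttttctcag
Lrrc4b, chr7:51687253-51687552: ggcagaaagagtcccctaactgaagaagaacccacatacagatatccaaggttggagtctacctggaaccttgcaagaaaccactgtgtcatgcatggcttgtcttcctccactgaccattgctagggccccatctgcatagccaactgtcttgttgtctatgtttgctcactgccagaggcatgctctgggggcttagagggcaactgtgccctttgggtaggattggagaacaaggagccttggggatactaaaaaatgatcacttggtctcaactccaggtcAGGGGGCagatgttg

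The intronic sites were weak and narrow. Their median enrichment was 2.24-fold over local background (quartiles 2.03 and 2.60), and the median −log10 q-value was 2.83, where every listed peak passed 2.00. Enrichment of at least 3-fold was recorded for 513 members (13.4%). The unmarked promoter peaks had a median of 2.18-fold and the marked peaks 2.19-fold, so intronic sites were not the weaker class by this measure. These values took part in choosing the members and were not tested. Intronic peaks were narrower, with a median width of 345 bp (interval of the median 332 to 359 bp) against 579 bp (549 to 606 bp) at promoters and 727 bp (678 to 762 bp) for marked peaks, and much like the 341 bp of intergenic peaks. Widths over 1000 bp were found in 7.21% of members, 24.8% of promoter peaks and 33.6% of marked peaks.

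Distance to the start site chose the members too. Just outside 2500 bp lay peaks in Ncald, 2505 bp from a start with 2.31-fold enrichment, and in Arpc1b, at 2507 bp with 2.19-fold. Just inside it, and therefore left out, lay peaks in Prkd2 (2499 bp, 3.32-fold) and U2af2 (2496 bp, 3.24-fold).

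Very high enrichment was clustered in a few regions. Windows of 5 Mb were set apart where they held at least 5 Flag-PCGF5 peaks of at least 8-fold enrichment, which gave 7 windows, 4 of them near the start of chromosome 11 and the others on chromosomes 2, 9 and 15. The definition itself draws such peaks into the windows, which held 212 of 220 of them over all classes and 63 of 65 among the members. These windows were known from an earlier look at the same list. They held 155 members, or 14.9 per Mb of eligible intron, while the other 3674 members stood at 4.38 per Mb. The definition by number of peaks favours this contrast as well. Eligible intron is intron of protein-coding genes over 2500 bp from a start, 848 Mb in all.

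The highest member lay in the first intron of Ss18l1 on chromosome 2 (chr2:179783769-179783982, 246-fold), and a second Ss18l1 site nearby reached 116-fold. Ss18l1 encodes CREST, a calcium-responsive coactivator of neuronal chromatin remodelling complexes. In the same window a site centred in intron 10 of Cdh4, the gene of the adhesion molecule R-cadherin, reached 100.2-fold. Introns are named here by the peak centre, and 478 members had a base of the peak in an exon. Cdh4 held 12 members with a median of 7.08-fold, all inside that window. The widest member spanned 50330 bp of Sfi1 on chromosome 11 (chr11:3049702-3100031, 10.8-fold), and its neighbour in Sfi1 (chr11:3027033-3048803, 8.04-fold) spanned 21771 bp. The centre of the wider peak lay 12492 bp from a protein-coding start. That peak therefore covers the start and counts as intronic by its centre alone. The wider peak was overlapped by all 6 lists of marks that did not choose the members, and the narrower by 4 of them. Whether copy number or mapping raised the signal in these regions was not tested.

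Outside the windows the strongest members were 2 sites of Camk2g, a subunit of the calcium/calmodulin-dependent kinase II. The site in the third intron (chr14:21590998-21591622) was enriched 9.95-fold and the site in intron 10 (chr14:21581886-21582117) 8.95-fold. They were the only members outside the windows to reach 8-fold. A group of 4 lay near each other on chromosome 11, between windows described above. Among these, the sperm protein gene Zpbp had sites of 7.55-fold (chr11:11237106-11237959) and 6.43-fold (chr11:11293326-11293522). Fignl1, which encodes an ATPase of DNA repair, had a site of 6.46-fold (chr11:11704195-11704408). Grb10, the imprinted gene of an adaptor that restrains insulin receptor signalling, had a site of 6.08-fold (chr11:11915910-11916147) that lay 4.06 kb from a mark. The remaining sites of the 10 were in Atp6v0d1, a proton pump subunit (chr8:108057905-108058589, 6.70-fold), Umod, the uromodulin gene of the kidney (chr7:126614655-126614872, 6.46-fold), Arhgap25, a Rac regulator of blood cells (chr6:87410863-87411106, 6.02-fold), and Tmc1, a channel subunit of inner ear hair cells (chr19:20989526-20989787, 4.85-fold). None of these 10 sites was overlapped by any list other than that of Flag-PCGF5 in NPC.

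Few NPC Flag-PCGF5 peaks of any class were Flag-PCGF5 sites in ES, and the interval of the intronic share included that of all classes together. An ES peak overlapped 20 of 3829 members (0.522%, interval 0.338% to 0.805%), beside 0.658% of all NPC Flag-PCGF5 peaks, 0.989% at promoters and 0.584% in intergenic sequence. The ES list was short, with 653 peaks against 12013 in NPC, and the depth of either library is unknown, so absence from it says little about a single site. Of the 20 shared sites, 11 lay in the windows of high enrichment, and 9 of 3674 members outside them were shared (0.245%, 0.129% to 0.465%). The shared sites had a median of 3.69-fold in NPC, but 2.25-fold when the windows were left out.

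Apart from a site in Pacsin2 on chromosome 15 (2.52-fold), the shared sites inside the windows lay near the start of chromosome 11. Ogdh, an enzyme subunit of the citric acid cycle, had a site of 19.3-fold in NPC and 13.6-fold in ES, and Smtn, the smooth muscle protein smoothelin, one of 12.7-fold in NPC and 12.4-fold in ES. The site between Drg1 and Eif4enif1, which overlap there, reached 13.7-fold in NPC and 7.74-fold in ES. Outside the windows the listed fold was lower in NPC than in ES at each of the 9 sites. The NPC and ES values were 3.15-fold and 4.77-fold in Calm3, a calmodulin gene, and 3.04-fold and 4.25-fold in Ryr1, the calcium release channel of skeletal muscle. In Pknox2, a homeobox gene of the TALE class, they were 2.28-fold and 7.78-fold. The site where Gm17482 overlaps Syn2, the gene of the synaptic vesicle protein synapsin II, had 1.90-fold and 2.73-fold. Fold values of separate libraries depend on the depth and background of each, so these are set side by side only. The sites outside the windows, and that of Pacsin2, rank below the 10 shared sites of highest fold and were named after their values had been seen.

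Few intronic sites met a mark in the lists that had not been used to choose them. The shares over all NPC Flag-PCGF5 peaks printed beside them include the 758 peaks chosen for carrying a mark, so part of each contrast follows from the selection. In ES, wild type H2AK119ub1 overlapped 65 members (1.70%, 1.33% to 2.16%) beside 2.76% of all NPC Flag-PCGF5 peaks, and wild type H3K27me3 overlapped 39 (1.02%, 0.746% to 1.39%) beside 4.39%. The latter share was 0.233% when 50% of the peak had to be covered. In PCGF5-depleted ES the counts were 24 members for H2AK119ub1 (0.627%, beside 1.93%) and 42 for H3K27me3 (1.10%, beside 3.89%). In PCGF5-depleted NPC they were 7 for H2AK119ub1 (0.183%, beside 1.42%) and 28 for H3K27me3 (0.731%, 0.506% to 1.05%, beside 5.68%), the latter share being 0.363% with 50% of the peak covered. Unmarked intergenic peaks had 1.29% (0.989% to 1.67%) for wild type ES H2AK119ub1 and 0.958% (0.707% to 1.30%) for wild type ES H3K27me3. For H3K27me3 of depleted NPC their share was 1.15% (0.868% to 1.51%). Each interval overlapped that of the intronic sites, but the first share lay below the intronic interval and the last above it. Across these 6 lists, 3681 members (96.1%) were overlapped by none and 148 (3.87%, 3.30% to 4.52%) by at least 1, of which 111 met exactly 1 list.

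Promoter peaks without a mark differed from the intronic ones here. H3K27me3 of PCGF5-depleted NPC overlapped 3.27% of them (2.66% to 4.02%), and wild type ES H3K27me3 3.16% (2.55% to 3.90%), and neither interval reached that of the intronic sites. Promoter peaks were also wider, as given above, and the part of width in these shares was not tested. For H2AK119ub1 in wild type ES the promoter share was 1.41% (1.02% to 1.93%), which overlapped that of the intronic sites. Of the peaks with a mark in wild type NPC, 66.9% met H3K27me3 in depleted NPC and 46.0% in wild type ES.

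**Figure D1:**
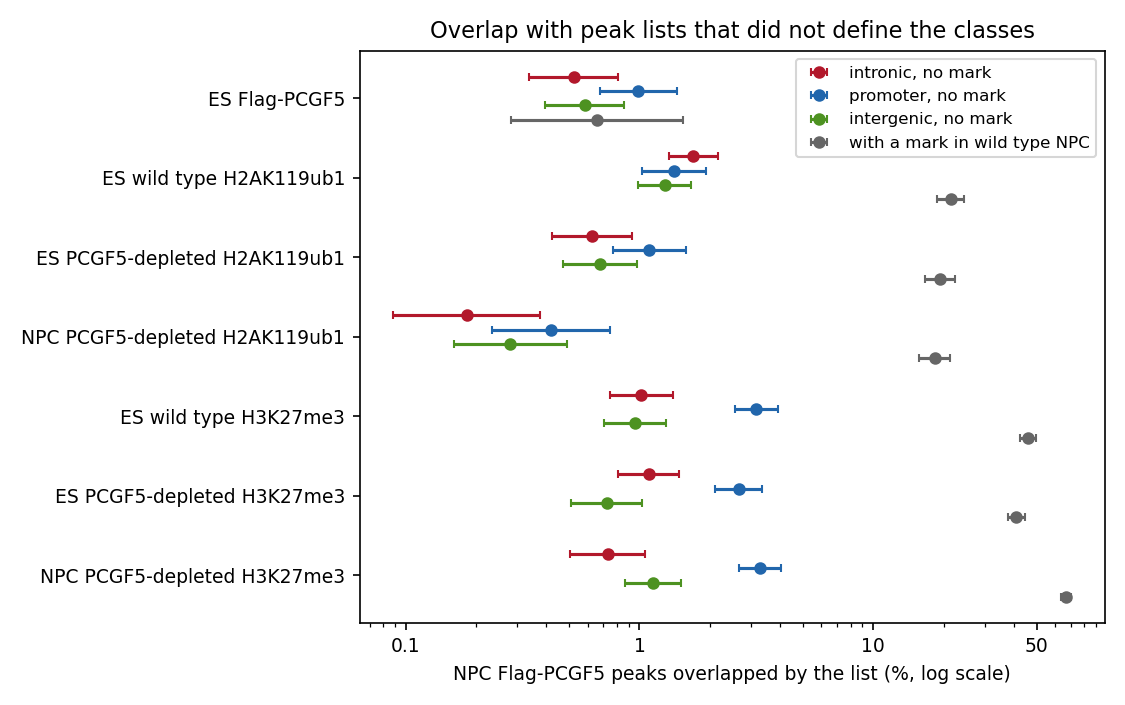
Share of NPC Flag-PCGF5 peaks (%, log scale) overlapped by 1 bp or more by each of 7 peak lists that did not define the classes, for unmarked intronic, promoter and intergenic peaks and for peaks with a mark. Points are shares and bars 95% Wilson intervals. The intronic peaks lie between 0.183% and 1.70% in all 7 lists.

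Because a member has no mark in wild type NPC by definition, a mark in the depleted cells can only be an addition. All intronic Flag-PCGF5 peaks, marked or not, allow the count in both directions. Of these 3902 peaks, H3K27me3 overlapped 69 in wild type NPC (1.77%, 1.40% to 2.23%) and 78 in PCGF5-depleted NPC (2.00%, 1.60% to 2.49%). In both lists were 50 peaks, in the wild type list alone 19 and in the depleted list alone 28. For H2AK119ub1 the counts were 29 in wild type and 21 in depleted NPC, with 17 and 9 in that list alone. Over all NPC Flag-PCGF5 peaks the shares in wild type and depleted NPC were 6.10% and 5.68% for H3K27me3 and 1.58% and 1.42% for H2AK119ub1. In ES the H2AK119ub1 count was 87 in wild type cells (2.23%, 1.81% to 2.74%) and 46 in depleted cells (1.18%, 0.885% to 1.57%), and the H3K27me3 count was 64 and 65. Over all NPC Flag-PCGF5 peaks the H2AK119ub1 share was lower in the depleted ES library as well, at 1.93% against 2.76%. Each genotype is 1 library, so these counts compare libraries and not genotypes. The H2AK119ub1 lists of ES held 8672 peaks in wild type and 7170 in depleted cells, and the share of this difference that comes from list length was not tested.

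The 28 members that met H3K27me3 in depleted NPC had a median enrichment of 2.26-fold, close to that of the other members (2.24-fold). For H3K27me3 the highest after Sfi1 was in Ethe1, a mitochondrial sulfur dioxygenase (chr7:25378798-25380950, 4.73-fold, 7.14 kb from a mark of wild type NPC). Next came Lrrc4b, a synaptic adhesion protein (3.35-fold), Ostm1 (3.30-fold, 0.017 kb from a mark), and the potassium channel gene Kcnh6 (2.97-fold, 2.27 kb). For H2AK119ub1 the 3 sites of highest fold below Sfi1 were in Kcnab1, a potassium channel subunit (2.42-fold, 885 kb from a mark), Cacna2d2, a calcium channel subunit (2.37-fold), and Pax5, a B cell transcription factor (2.34-fold). The Pax5 site (chr4:44678431-44679379) was overlapped by both marks in depleted NPC, by H3K27me3 in wild type ES and by H2AK119ub1 in depleted ES.

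A further 3 members outside Sfi1 and Pax5 met at least 4 of the 6 lists. Lmx1b, a homeobox gene of midbrain neurons, had a site (chr2:33437710-33439103, 1.74-fold) in 5 lists and 0.025 kb from a mark in wild type NPC. Zfhx3, a zinc finger homeobox gene, had a site (chr8:111315109-111316538, 2.20-fold) in all 4 lists of ES and in neither list of depleted NPC, 91.6 kb from a mark. The site in Ccdc27 (2.12-fold) met 4 lists as well. These 3 were named after their values had been seen.

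Distances to the marks of wild type NPC are bounded by the rule, which removed every peak on a mark. The median distance to the nearest one was 74.8 kb (quartiles 28.6 and 171 kb), beside 69.1 kb for unmarked promoter peaks, 91.8 kb for intergenic peaks and 68.9 kb for all NPC Flag-PCGF5 peaks, and 218 members (5.69%) lay within 5 kb of one and 395 (10.3%) within 10 kb. For unmarked promoter peaks the share within 5 kb was 11.3% (10.1% to 12.6%), above the interval of the intronic sites (5.00% to 6.47%), while the 6.17% of intergenic peaks lay inside it. Other Flag-PCGF5 peaks were nearer, at a median of 14.7 kb, and 42.4% of members had one within 10 kb (41.4% outside the windows). This share was 41.0% (39.1% to 42.9%) for promoter peaks, 34.8% (33.4% to 36.2%) for intergenic peaks and 40.3% for all peaks.

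The intronic sites were richer in GC than most intron, as the other classes of Flag-PCGF5 peaks were. The 300 bp windows at their centres had a median GC content of 52.0% (quartiles 48.7% and 55.0%), and the 2736773 windows that tile all eligible intron had a median of 42.3% (37.3% and 47.0%). The median was 51.0% for intergenic peaks, 59.0% for promoter peaks, 60.0% for marked peaks and 53.0% for all NPC Flag-PCGF5 peaks. Of the members, 96.8% lay at or above the median of the tiles, and 66.4% had at least 50% GC, which 13.8% of the tiles reached. The tiles leave out exons of protein-coding genes, while 478 members had a base of the peak in one. Without these members the median GC content of the intronic sites was 51.3%. The density of members rose from 0.246 per Mb of intron with 35% to 40% GC to 5.42 per Mb at 45% to 50%, 17.5 per Mb at 50% to 55% and 39.8 per Mb at 55% to 60%. Above that, the 123 members at 60% to 65% GC gave 44.0 per Mb and the 16 members at 65% to 70% gave 30.9 per Mb.

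High GC did not mean CpG islands. The ratio of observed CpG to that implied by the C and G content had a median of 0.161 in members (interval 0.156 to 0.165), 0.145 in intergenic peaks, 0.591 in promoter peaks and 0.566 in marked peaks. Windows like CpG islands, with over 50% GC and a ratio over 0.6, made up 0.810% of members (0.571% to 1.15%), 47.8% of promoter peaks (45.9% to 49.7%) and 44.1% of marked peaks (40.6% to 47.6%). Among all intron tiles 0.253% were of this kind. The composition hardly changed with peak strength, the median GC content being 52.0% in the 958 members with the lowest −log10 q-values and 51.7% in the 957 with the highest. GC content affects amplification and sequencing as well, and without the signal of the input libraries its part in the peak calls was not tested.

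**Figure D2:**
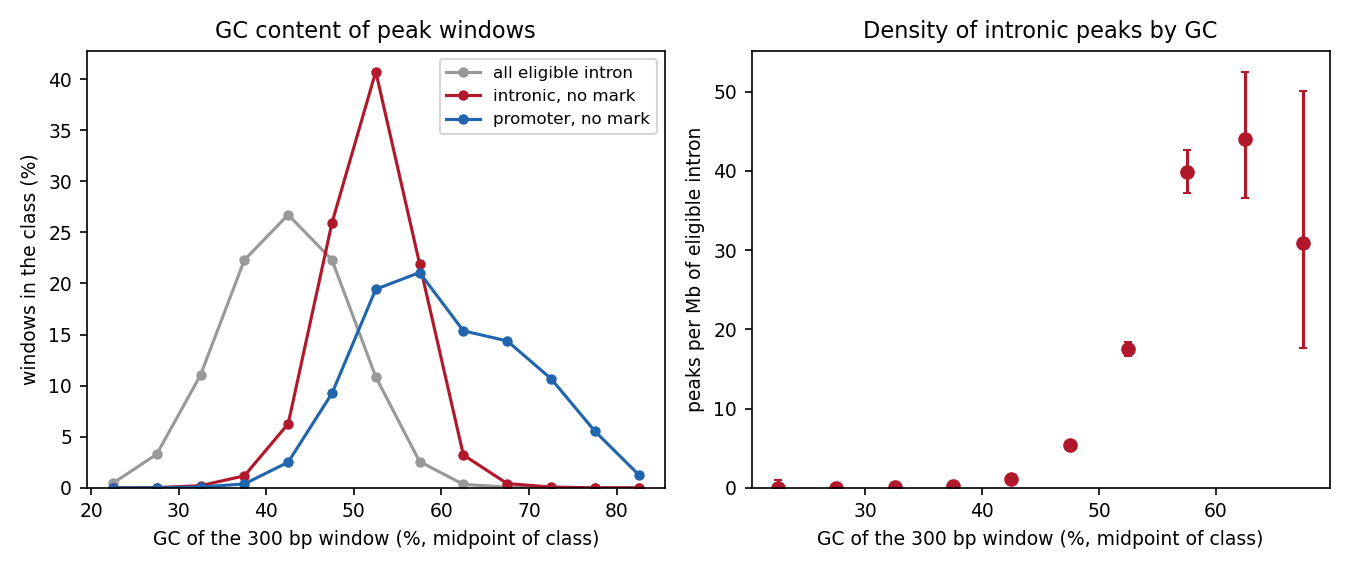
Left, share of 300 bp windows (%) in each 5-point class of GC content for all eligible intron, unmarked intronic peaks and unmarked promoter peaks. Right, unmarked intronic peaks per Mb of eligible intron by GC class, with 95% Poisson intervals, for classes of at least 1000 tiles. The density rises from under 1 per Mb below 40% GC to 39.8 per Mb at 55% to 60%.

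Letter patterns of transcription factor motifs were counted on both strands of the same windows, beside all intron tiles and beside tiles weighted to the GC content of the members. The tiles leave out exons, and the part of exon sequence in member windows was not tested. Several patterns that differed from all intron had shares close to those of tiles of like GC. The GC box GGGCGG of the SP and KLF factors was found in 7.83% of members and 2.70% of tiles, but in 7.53% of tiles of like GC. The SOX letters ACAAAG were found in 20.6% of members, 25.8% of tiles and 20.6% of tiles of like GC. The SMAD element CAGACA, the target of TGF-beta signalling, stood at 28.9%, 25.1% and 29.4%. The E-box CAGCTG of proneural factors was above all tiles but below tiles of like GC, at 17.4% (16.3% to 18.7%), 11.3% and 19.5%.

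A few patterns stayed apart at like GC. The CTCF core AGGGGGC was present in 7.13% of members (6.36% to 7.99%) against 2.43% of tiles and 5.30% of tiles of like GC, a ratio of 1.34 for the latter (1.20 to 1.51). CTCF is the factor that bounds chromatin loops. The CTCF letters were not particular to intronic sites, being present in 7.22% of intergenic, 12.4% of promoter and 14.4% of marked peaks. The letters TTCAGCACC from the site of REST, the repressor of neuronal genes in other cells, was present in only 24 members (0.627%, 0.422% to 0.931%, against 0.390% at like GC). TEAD letters CATTCC were found in 19.4% against 16.8%, and NFY letters CCAATC in 10.2% against 9.03%. In intergenic peaks these stood at 21.3% and 11.7%, and in promoter peaks at 13.3% and 13.6%. Shares of the other classes were not set against tiles of like GC. Below the tiles of like GC lay the homeodomain core TAATTA, with 2.74% against 3.60%, and the E-box CACGTG, with 3.73% against 4.82%. The POU octamer ATGCAAAT (0.888% against 1.05%), AP-1 letters TGANTCA (7.31% against 7.96%) and GATA letters AGATAAG (3.40% against 3.19%) had intervals that included the value at like GC.

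Among the patterns searched, the ratio to tiles of like GC was highest for a short repeat that was picked from these same windows. Its rank and interval are therefore descriptions and carry no test. The repeat GGATGGAT, added after the windows had been read, was found in 176 members (4.60%, 3.98% to 5.31%) against 2.05% of tiles and 2.32% of tiles of like GC, a ratio of 1.98 (1.71 to 2.29). Intergenic peaks had it in 4.14% (3.58% to 4.78%) and promoter peaks in 1.07% (0.738% to 1.53%). The 4933411K20Rik window printed above is the member of this kind with the lowest q-value outside the high windows, at 5.18-fold. Runs of 20 bp of 1 base or 1 dinucleotide were present in 4.99% of members and 4.28% of tiles of like GC. How reads at short repeats were mapped was not tested.

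The remaining patterns had shares among members, all tiles and tiles of like GC as follows. ETS letters CCGGAAG stood at 1.75%, 0.773% and 1.79%, and TCF/LEF letters CTTTGAT at 3.19%, 5.65% and 3.64%. MEIS and TGIF letters TGACAG stood at 20.8% (19.5% to 22.1%), 19.1% and 23.0%, and the cAMP response element TGACGTCA at 0.209%, 0.161% and 0.271%. At least 1 CG was present in 89.8% of members, 83.4% of tiles and 93.1% of tiles of like GC. The motif of paired SOX sites stood at 0.340%, 0.679% and 0.369%, and the full NFI palindrome was found in 0 members, which allows a share of up to 0.0783% (3 counts of 3829), against 0.0176% of tiles. A match of letters is a description of the window and does not show that a factor binds there.

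**Figure D3:**
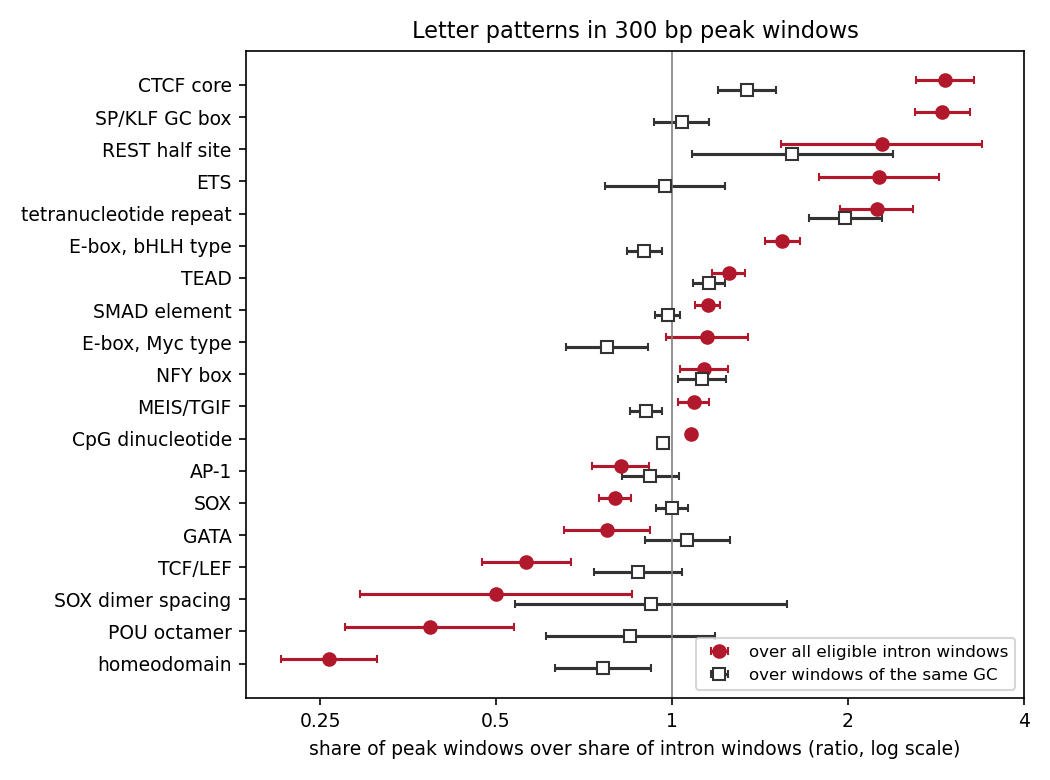
Ratio (log scale) of the share of member windows with each letter pattern to the share among all eligible intron windows (filled circles) and among intron windows of the same GC content (open squares), for patterns in at least 10 members. Bars are 95% Wilson intervals of the member share. At the same GC content the REST letters lie at 1.61 with a wide interval and the CTCF core at 1.34. The homeodomain core lies at 0.762 and the Myc type E-box at 0.775. The tetranucleotide repeat, added after these windows had been read, lies at 1.98.

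Chromosomes differed widely. Among the autosomes, density ran from 2.14 members per Mb of eligible intron on chromosome 3 (1.72 to 2.63) to 10.1 on chromosome 11 (9.14 to 11.0), and to 9.29 on chromosome 11 outside the windows of high enrichment. Chromosome 7 followed with 7.61 and chromosome 8 with 6.32. The GC content of the eligible intron was highest on chromosome 11, at 44.0%, and was 41.1% on chromosome 3. Set against the number that intron of the same GC content held over the genome, chromosome 11 stood at 1.64 times (1.50 to 1.80), chromosome 6 at 1.36 times (1.20 to 1.53), chromosome 7 at 1.35 times (1.21 to 1.50) and chromosome 3 at 0.655 times (0.527 to 0.805). The chromosome 11 ratio counts all 451 members there, of which 370 lay outside the windows. It was not computed without them.

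The X chromosome was almost empty. It held 3 members in 39.1 Mb of eligible intron, 0.0767 per Mb (0.0158 to 0.224), where intron of its GC content would have held 71.4, a ratio of 0.0420 (0.00867 to 0.123). Of NPC Flag-PCGF5 peaks of every class, 26 lay on X. Members on X lay in 1700013H16Rik (2.56-fold) and in 1700008I05Rik (2.85-fold). The number of X chromosomes in these cells was not given in the sources used here, and its part was not tested.

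**Figure D4:**
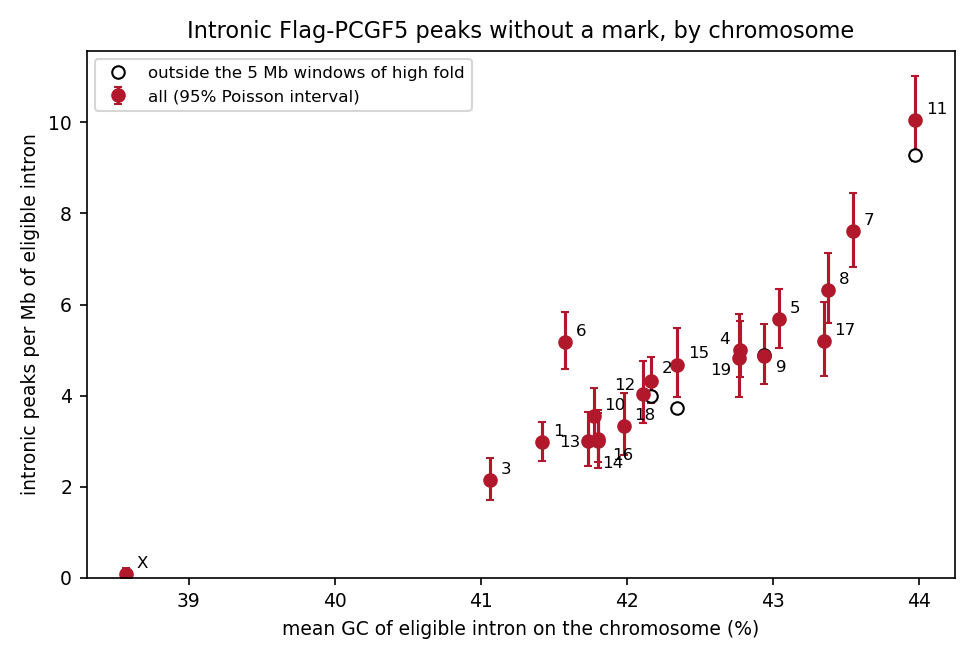
Unmarked intronic Flag-PCGF5 peaks per Mb of eligible intron on chromosomes 1 to 19 and X against the mean GC content (%) of that intron. Filled points have 95% Poisson intervals, and open points leave out the 5 Mb windows of high enrichment. Chromosome X lies at 0.0767 per Mb and chromosome 11 at 10.1 per Mb.

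Within genes the sites were spread along the whole body. Of 3767 members that lay in an intron of the longest transcript of their gene, 1003 (26.6%, 25.2% to 28.1%) were in the first intron, which made up 24.6% of the eligible sequence. The second intron held 15.3% of members and 15.6% of the sequence, and the fourth and later introns held 47.9% and 48.8%. With the gene body cut into 10 equal parts, shares ran from 5.95% in the first, where 7.49% of the eligible sequence lay, to 11.3% in the fourth with 10.6% of it. Distance from the nearest start had more to do with density, which fell from 7.33 per Mb at 2500 to 5000 bp (6.67 to 8.04) to 2.01 per Mb in the farthest class (1.81 to 2.23), whose members lay up to 669 kb away. Against intron of the same GC content these were 1.32 times (1.20 to 1.44) and 0.697 times (0.627 to 0.772). Starts of annotated transcripts other than protein-coding ones lay within 1000 bp of 192 members (5.01%, 4.37% to 5.75%), and 2.33% of eligible intron was that near.

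The 3829 members were hosted by 2276 of 22380 protein-coding genes (10.2%). A single member was found in 1490 of these, 2 members in 449 and 3 or more in 337. Density was higher in genes with little eligible intron, at 9.67 per Mb for genes with under 10 kb (8.51 to 10.9) and 2.82 per Mb for genes with over 200 kb (2.65 to 3.00). At the same GC content the ratios were 1.41 (1.24 to 1.60) and 0.827 (0.777 to 0.879).

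Host genes more often had a Flag-PCGF5 peak at their own promoter. Among genes with 10 to 50 kb of eligible intron, 245 of 836 hosts had one (29.3%, 26.3% to 32.5%) against 749 of 5852 genes without a member (12.8%, upper bound 13.7%). The difference was seen in both longer classes too, with 28.7% against 12.5% at 50 to 200 kb and 25.6% against 11.6% above 200 kb. H3K27me3 at the promoter in wild type NPC was also more frequent in hosts, at 25.7% (22.9% to 28.8%) against 12.2% (11.4% to 13.1%) in the shortest of these classes, 32.7% against 19.9% in the middle one and 46.4% (41.5% to 51.4%) against 39.0% (34.7% to 43.5%) in the longest, where the intervals overlapped. For H2AK119ub1 the shares were 6.58% against 3.30%, 9.09% against 5.97% and 14.2% against 11.2%. Genes of 1 genomic neighbourhood share their GC content and enrichment, so genes are not independent here.

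The gene with the most members, 87, was Gm20388, a gene model of 4.43 Mb on chromosome 8 that runs across many other genes, and 60 of its members had no other host. The Fgfr2 model, with 18 members, is 3.01 Mb long in this annotation. In all, 76 members (1.98%) lay in no gene but one of the 6 models longer than 2 Mb, and the host named for them rests on these models.

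The other genes among the 10 with most members held 11 to 22 each. Sorcs2, a sorting receptor for neurotrophin signalling, held 22 members at 1.72-fold to 3.11-fold, and Pknox2 held 18 at 1.81-fold to 4.89-fold. Camta1, a calmodulin-binding transcription activator of the brain, held 16, Zfp536, a repressor of neuronal differentiation, 13, and Rbfox3, which encodes the neuronal splicing factor NeuN, 12. Cdh4 held 12 as given above. Ephb2, an ephrin receptor of axon guidance, held 11 at 2.14-fold to 3.83-fold, and Atp2b2, a plasma membrane calcium pump, held 11. Of the 10 genes with most members, all but Pknox2 and Gm20388 had H3K27me3 at the promoter in wild type NPC, and Gm20388 and Fgfr2 had a Flag-PCGF5 peak there. Among all host genes with over 200 kb of eligible intron these shares were 46.4% and 25.6%. Ephb2, with 169 kb, belongs to the class of 50 to 200 kb, where they were 32.7% and 28.7%. The 10 genes were ranked by number, which favours long genes.

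By density, among genes with at least 3 members outside the windows, Fgf6, a growth factor gene of muscle, came first with 3 members in 5.94 kb of eligible intron. Cspg4, which encodes the NG2 proteoglycan of oligodendrocyte precursors and pericytes, held 8 members in 24.4 kb at 2.01-fold to 2.63-fold. Lrrc4b held 5 in 24.2 kb, with a median of 3.35-fold. Col11a2, a fibrillar collagen gene, and Plcd1, a phospholipase C gene, held 4 each, in 14.1 and 17.0 kb. Samd14, BC034090, Rad52 (a DNA repair gene), Gprc5a (an orphan receptor gene) and Pard6b (a cell polarity gene) held 3 each.

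A group of 3 neural gene lists had fewer intronic sites per length of intron than all genes. Over all protein-coding genes the density was 4.51 members per Mb. Genes of neural cell adhesion and synapse organisation had 49 members in 38.1 Mb, 0.285 times that density (0.211 to 0.377), ion channels and neurotransmitter receptors had 48 in 21.5 Mb, 0.495 times (0.365 to 0.656), and transcription factors of neural development had 28 in 10.1 Mb, 0.614 times (0.408 to 0.887). The median GC content of intron windows was near 39% for adhesion genes and 41% for channels and receptors, against 42.3% over all eligible intron. That of the transcription factors was near 43%. Against intron of the same GC content the 3 ratios rose to 0.642 (0.475 to 0.849), 0.751 (0.554 to 0.996) and 0.730 (0.485 to 1.05). The listed genes had a median of 696, 369 and 98.9 kb of eligible intron, and 1.29, 2.23 and 2.77 members per Mb. Density was lower in long genes of any kind, at 2.82 per Mb for all genes with over 200 kb. At the same GC content that was 0.827 times. The part of length in the ratios of the 3 lists was not tested. Because the listed genes are long, the share hosting at least 1 member was above that of all genes, at 39.6%, 37.0% and 23.3% against 10.2%. The lists and members were chosen with earlier results known, and these ratios are descriptions.

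Within these lists, Cdh4 led the adhesion genes with its 12 members, followed by Negr1, a neuronal growth regulator, and Cdh13, which encodes T-cadherin, with 5 each, and Ntm (neurotrimin) with 3. Cacna1c, the pore of an L-type calcium channel, held 11 members in 573 kb, the glutamate receptor genes Grin2b and Grik3 held 5 and 4, and the cation channel gene Trpm3 held 4. Of the transcription factors Tcf7l2, the effector of Wnt signalling, held 5, and Gli2 (Hedgehog signalling), Rora and Npas3 held 3 each.

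Axon guidance genes had 54 members in 11.1 Mb, 1.08 times the density of all genes (0.808 to 1.40) and 1.33 times that of intron of the same GC content (0.999 to 1.74). After Ephb2 came Srgap3, a regulator in Slit and Robo signalling, with 7, Slit1, a repulsive ligand, with 6, and Ephb1 with 5. Genes of Wnt, FGF and Notch signalling stood at 1.34 times (0.968 to 1.82), and at 1.04 times (0.750 to 1.41) against intron of the same GC content. They had 42 members, of which 18 were in the long Fgfr2 model. The others there were Wnt5b with 5, Axin2, a Wnt feedback inhibitor, with 4 in 21.5 kb, and Wnt7a with 3.

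Genes of TGF-beta and SMAD signalling, a pathway the study examined, had 14 members in 2.80 Mb, 1.11 times the density of all genes (0.605 to 1.86) and 0.904 times at the same GC content. Of 48 genes 9 hosted a member (18.8%, 10.2% to 31.9%), beside 10.2% of all protein-coding genes. The listed genes had a median of 36.1 kb of eligible intron, beside 8.87 kb over all protein-coding genes. The receptor gene Acvr1 held 4 members, at 1.98-fold, 2.77-fold, 2.98-fold and 3.48-fold. The receptor gene Acvr2b held 3, at 2.40-fold, 2.66-fold and 5.09-fold. The ligand genes Gdf11 and Tgfb1 held 1 each, that of Tgfb1 with 2.42-fold enrichment in the fifth intron. The signal transducer gene Smad3 had a site of 1.95-fold in its first intron, and Tgfbr3, the co-receptor betaglycan, had a site of 2.04-fold, both named after the values had been seen.

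The remaining lists were small. Polycomb and associated chromatin regulators had 11 members in 2.87 Mb (0.850 times, 0.424 to 1.52), of which 6 lay in Auts2, a partner of variant Polycomb complexes, 2 in Fbrsl1 and 1 each in L3mbtl2 and Phf19. Blood and immune genes had 19 (0.932 times, 0.561 to 1.46), with 5 in Prkcb, a protein kinase C gene, and 3 each in Skap1, Bach2 and Dock2. Pluripotency genes had 2, of which 1 lay in Dnmt3b (0.464 times, 0.0562 to 1.68). Translation, splicing and proteasome genes had 5 (1.13 times, 0.367 to 2.64), with 2 in the splicing factor gene Prpf8 and 1 each in Rpl3, Psmd12 and Eif4g3. Each of these intervals included the density of all genes.

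**Figure D5:**
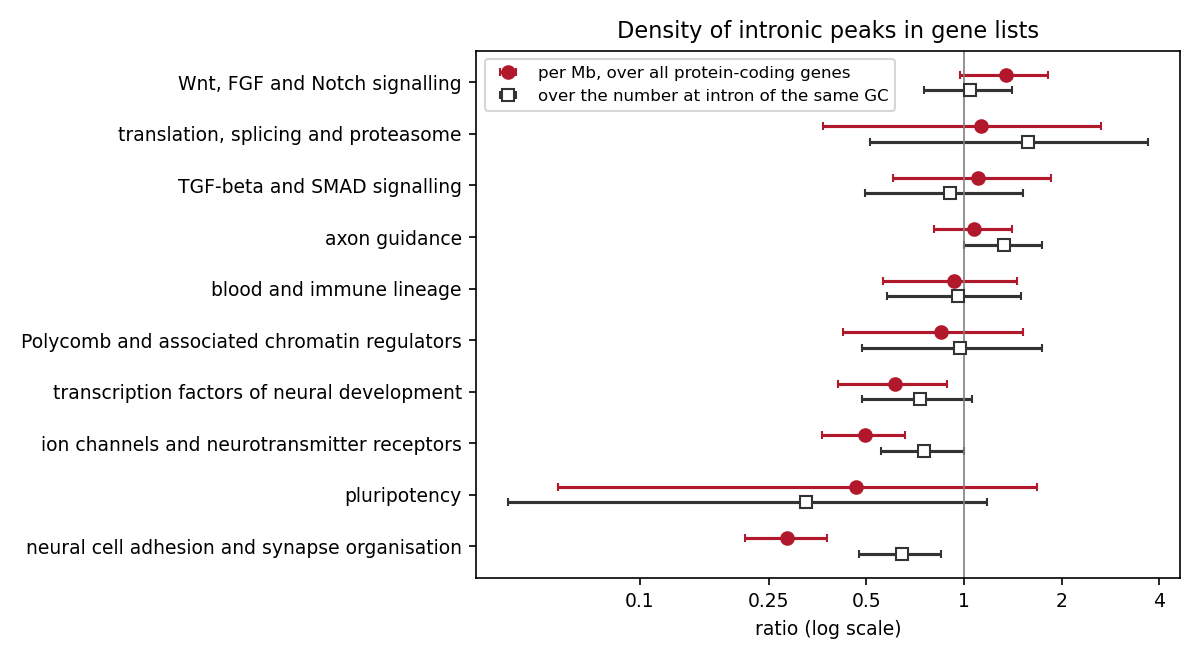
Ratio (log scale) of the density of unmarked intronic Flag-PCGF5 peaks in 10 gene lists to that of all protein-coding genes (filled circles), and of their number to that held by intron of the same GC content (open squares), with 95% Poisson intervals. Neural adhesion genes lie lowest by circles with an interval below 1 (0.285), and their square lies at 0.642.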

How the data were processed

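ChIP-seq peak lists of 10 libraries were analysed, 1 per group, out of 16, and the 6 input libraries were not used here. According to the methods and the submitters' processing notes, the authors used Trimmomatic to trim reads and discard those under 36 bp, Bowtie2 for alignment (mm9), Picard against duplicates and, for every library by itself, MACS2 2.1.0 to find peaks. Libraries were not pooled. Flag chromatin was fixed with EGS and formaldehyde and sonicated, while chromatin for the marks was cut with MNase. The deposited lists give a score for each peak, its fold enrichment over local background (a ratio) and its −log10 p-value and −log10 q-value, all from the authors' peak caller. No read totals are in these files, so depth is unknown.

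Peaks were placed on NCBIM37 (mm9) with GENCODE M1, counted from 1. Overlap meant at least 1 bp, and the counts were checked against bedtools 2.31.1 with 0 of 9 differing. Densities used intron of protein-coding genes over 2500 bp from a start. Sequence windows were 300 bp, and GC-matched numbers used classes of GC content over all tiles. Intervals are 95% Wilson for shares, exact Poisson for counts and order-statistic for medians. Code was run in python 3.11.15 with pysam 0.24.0 and scipy 1.17.1, and was tested on simulated data. With 1 library per group no test of conditions was made.

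The members, gene lists and motifs were chosen with earlier results of these data known. Named sites were the 10 members of lowest q-value outside and 3 inside the windows of high enrichment, up to 10 members shared with ES, 5 of highest fold for each mark in depleted NPC, 2 peaks on either side of the 2500 bp limit, the 10 genes with most members and with most per Mb, and 4 genes per list. Alternatives are given in the closing section.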

Additional observations from a re-analysis of the deposited data

How the results depend on the processing

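No paired analysis was possible because each group has 1 library. The settings below changed the membership or the counting, 1 at a time. Leaving out the sex chromosomes, or also excluding exons of every annotated gene (chosen after seeing the data), moved none of 10 summary values by more than its interval. When 50% of a peak's length had to be covered, H3K27me3 of PCGF5-depleted NPC met 0.363% of members and that of wild type ES 0.233%. With no mark within 5000 bp, members were 30.1% of the list, 0.498% met H3K27me3 in depleted NPC and 28.4% of host genes had H3K27me3 at the promoter. With a promoter limit of 1000 bp, the members were 35.0% of the list, 29.0% lay in the first intron and 35.8% of hosts had a promoter Flag-PCGF5 peak. By construction, members between both limits can themselves be that peak. The higher-scoring 50% of the list held 1945 members of median 2.59-fold, of which 0.874% were shared with ES, and 35.5% and 33.5% of their hosts had promoter Flag-PCGF5 and H3K27me3. Outside the windows of high enrichment 0.245% were shared with ES. With no base of the peak in an exon, members were 27.9% of the list with a median GC content of 51.3%, 29.8% were in the first intron, 0.328% were shared with ES and 0.657% met wild type ES H3K27me3.

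Counting genes with at least 1 member instead of members per Mb put 3 lists above all genes that were below by density. These were neural adhesion (3.90 times the share of all genes), ion channels (3.64 times) and neural transcription factors (2.29 times). By this count axon guidance stood at 3.50 times, Wnt, FGF and Notch at 2.50 times and blood and immune genes at 1.97 times. By construction long genes count more here. In windows of 200 bp the ratio of members to tiles was 1.12 for CG and 2.76 for GGATGGAT, and the other 19 patterns stayed within their intervals.

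Each group had 1 library of unknown depth, so no difference between cells or genotypes has a replicate check. Input signal and Flag ChIP from cells without the tag were not analysed here.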
